A study of Mus musculus with 2 samples.

Results

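The regions described here are the H1t peaks that lie just upstream of protein-coding genes in spermatogenic cells of the mouse. H1t was immunoprecipitated with a rabbit polyclonal antibody, made in-house, from enzymatically fragmented chromatin of germ cells taken from testes of ICR mice, an outbred strain, at 6 weeks of age. The series holds 2 libraries, the H1t immunoprecipitate and an input made without antibody, and the peak list of the H1t library was analysed. The labels give no genetic change or treatment, do not say how many mice were pooled, and name no sorting by stage, so the cells are a mixture of germ cell stages. A peak was a member when its midpoint lay 1 to 1000 bp upstream, by strand, of the 5′-most annotated start of a coding gene on chromosomes 1 to 19 and not 0 to 1000 bp downstream of any such start. This gave 801 member peaks of 72438 on these chromosomes (1.11%) and of 76546 in the whole list (1.05%). They lay upstream of 825 of 20807 coding genes, which is 3.97% of the genes. With 1 library there is no replicate, so the values are given as descriptions without a test, and read depth is unknown. The library has no expression readout, so the labelled cell type could not be checked against marker genes.

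Linker histones bind nucleosomes where the DNA enters and leaves the core particle, and they favour compact chromatin. H1t is the linker histone made in male germ cells during meiotic prophase, and it persists into early spermatids. The start of a gene is usually flanked by a promoter on its upstream side. Many mammalian promoters lie in stretches rich in the dinucleotide CG, called CpG islands, and some of them serve a pair of genes that point away from each other. Such an arrangement is called a divergent or bidirectional promoter, and its partner gene may be coding or non-coding.

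Sequences are shown for the 2 highest-scoring pairs of divergent coding genes whose windows were available for both partners, since there a peak lies upstream of both genes. Each is the 250 bases of the RefSeq window that lie upstream of both the GENCODE and the RefSeq start, in GRCm38.p6 (the assembly called mm10), written 5′ to 3′ on the strand of its gene, with CG dinucleotides in capitals. The peak covered each of these stretches whole. Rbmxl1, an intronless relative of the RNA-binding protein gene Rbmx, is shown from chr8:78508929-78509178 on the minus strand. Slc10a7, of a family of bile acid and related transporters, is shown from chr8:78509078-78509327 on the plus strand, so the ends of this pair overlap and read as reverse complements. Lyzl4, a lysozyme-like gene, is shown from chr9:121642122-121642371 on the minus strand. Vipr1, the gene of a receptor for vasoactive intestinal peptide, is shown from chr9:121642466-121642715 on the plus strand.
Rbmxl1: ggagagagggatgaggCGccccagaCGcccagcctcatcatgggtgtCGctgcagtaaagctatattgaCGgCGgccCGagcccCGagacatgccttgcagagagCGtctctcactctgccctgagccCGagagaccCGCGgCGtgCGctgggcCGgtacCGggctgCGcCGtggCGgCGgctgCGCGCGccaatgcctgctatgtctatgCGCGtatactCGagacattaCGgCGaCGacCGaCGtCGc
Slc10a7: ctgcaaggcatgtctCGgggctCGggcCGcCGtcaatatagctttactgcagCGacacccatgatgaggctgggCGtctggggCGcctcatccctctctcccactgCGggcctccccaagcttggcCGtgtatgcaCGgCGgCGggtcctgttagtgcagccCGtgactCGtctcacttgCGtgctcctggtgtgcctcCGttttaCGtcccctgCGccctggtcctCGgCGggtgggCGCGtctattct
Lyzl4: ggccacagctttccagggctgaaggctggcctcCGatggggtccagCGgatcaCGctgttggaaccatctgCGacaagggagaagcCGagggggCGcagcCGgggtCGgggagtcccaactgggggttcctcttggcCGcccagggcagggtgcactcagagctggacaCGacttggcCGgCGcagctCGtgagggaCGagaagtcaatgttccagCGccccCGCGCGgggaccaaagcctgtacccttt
Vipr1: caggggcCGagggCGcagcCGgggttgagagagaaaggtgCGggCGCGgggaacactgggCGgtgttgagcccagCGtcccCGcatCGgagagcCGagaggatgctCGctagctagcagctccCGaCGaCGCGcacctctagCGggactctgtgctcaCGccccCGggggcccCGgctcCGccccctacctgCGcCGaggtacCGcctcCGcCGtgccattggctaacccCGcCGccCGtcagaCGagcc

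These stretches had a GC content of 66.8% with 31 CG dinucleotides for Rbmxl1, 65.2% with 22 for Slc10a7, 66.8% with 18 for Lyzl4 and 72.8% with 30 for Vipr1. The ratio of observed to expected CG, which is 1 where CG occurs as often as its letters allow, was 1.11, 0.831, 0.652 and 0.906 in the same order.

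The next sequences come from strong members without a divergent coding partner and are shown because they differ in composition. They were taken from the 6 highest-scoring such genes with a window whose start lay within 50 bp of the GENCODE start. For 3110070M22Rik, whose role is not described here, the stretch is chr13:119488385-119488634 on the minus strand. For Nrg3, a neuregulin that signals through an ErbB receptor, it is chr14:39473089-39473338 on the minus strand. For 4930512M02Rik it is chr11:11627839-11628088 on the minus strand. Capitals again mark CG dinucleotides, and each stretch lay wholly inside its peak.
3110070M22Rik: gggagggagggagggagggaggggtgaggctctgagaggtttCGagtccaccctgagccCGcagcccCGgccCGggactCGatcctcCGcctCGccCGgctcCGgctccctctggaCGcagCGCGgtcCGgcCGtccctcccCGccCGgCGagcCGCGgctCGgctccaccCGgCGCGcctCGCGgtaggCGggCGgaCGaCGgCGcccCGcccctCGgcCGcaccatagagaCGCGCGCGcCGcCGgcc
Nrg3: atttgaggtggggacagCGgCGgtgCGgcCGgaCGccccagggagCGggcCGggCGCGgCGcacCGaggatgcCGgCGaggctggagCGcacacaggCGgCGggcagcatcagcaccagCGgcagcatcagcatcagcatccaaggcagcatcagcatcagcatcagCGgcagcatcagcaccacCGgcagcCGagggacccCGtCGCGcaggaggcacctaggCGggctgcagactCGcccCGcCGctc
4930512M02Rik: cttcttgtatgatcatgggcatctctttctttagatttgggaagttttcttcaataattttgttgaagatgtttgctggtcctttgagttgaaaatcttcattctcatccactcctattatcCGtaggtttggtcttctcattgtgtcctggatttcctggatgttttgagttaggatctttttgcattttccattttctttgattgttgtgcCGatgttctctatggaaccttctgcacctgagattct

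The stretch of 3110070M22Rik had a GC content of 79.6% with 39 CG dinucleotides, and that of Nrg3 had 72.4% with 27. The stretch of 4930512M02Rik had 37.6% with 2, the lowest of the 10 examined, although its peak had a score of 210.86 and was 1512 bp wide. Whether this stretch also occurs elsewhere in the genome was not examined, and how reads with several positions were placed is not given. The other 3 in this group were Gm13287 with 68.8%, Tshz3 with 74.0% and Cpsf2 with 60.8%. The other 9 ran from 60.8% to 79.6%, and all 10 genes were selected for high scores. A wider comparison of promoter sequences was void, because 618 of 825 member genes (74.9%) had a RefSeq window and 415 (50.3%) had 1 whose start lay within 50 bp, under the 80% required.

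Members gathered close to the start and thinned out with distance. The midpoint lay a median of 198 bp upstream, with quartiles of 71 and 437 bp, counted from the nearer start where there were 2. The first 100 bp held 271 members (33.8%), the next 100 bp held 133, and the last 100 bp of the window held 28. In all, 636 members (79.4%) lay within 500 bp and 165 (20.6%) between 501 and 1000 bp. The members closest to the start were at D10Wsu102e and Hsf4, a heat shock factor gene, each with a midpoint 1 bp upstream. At the other edge lay the peaks of Rbms2 at 1000 bp (713 bp wide, score 73.94), Wdr41 at 996 bp (1162 bp, 81.87) and Fndc10 at 995 bp (462 bp, 55.43). Just past the edge, and so not members, were peaks of Sall3, which also has a member, at 1011 bp (761 bp, 81.97), Fgf11 at 1015 bp (576 bp, 64.91) and Gm16440 at 1016 bp (1048 bp, 129.39). The widths and scores on the inner and outer sides of the edge overlapped.

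**Figure D1:**
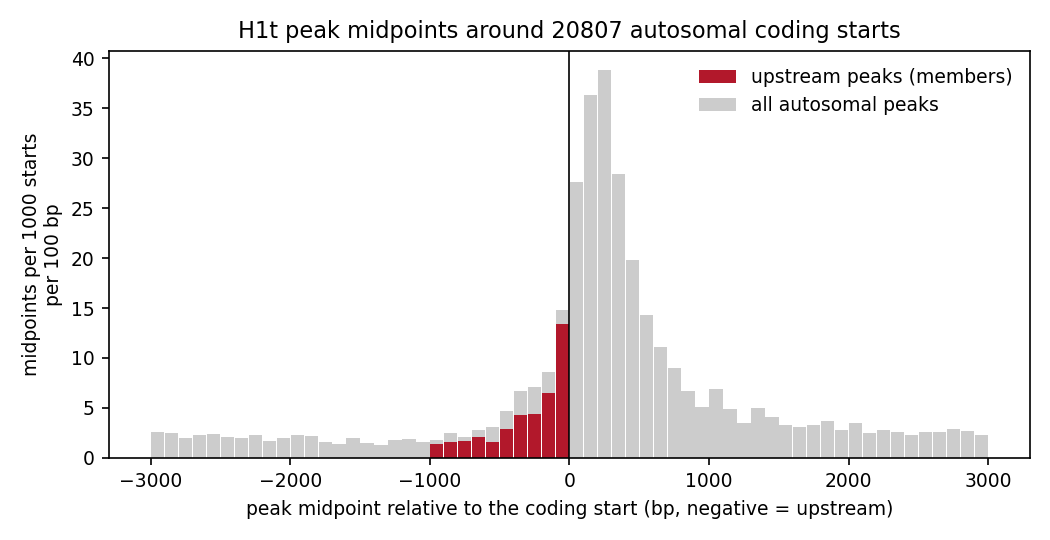
Midpoints of H1t peaks per 1000 coding starts in 100 bp steps (y axis) against the distance from the start in bp (x axis, negative values upstream), with members in red and all autosomal peaks in grey. Members reach 13.4 per 1000 starts in the 100 bp next to the start, and the tallest bar, 200 to 300 bp downstream, reaches 38.8.

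The upstream side carried fewer peaks than the downstream side of the same starts. The 1000 bp upstream held 42.8 midpoints per Mb of eligible sequence, against 196 per Mb in the 1000 bp downstream and 16.2 per Mb between 1001 and 2000 bp upstream. In the plot of midpoints around starts, the density was highest 200 to 300 bp downstream, at 38.8 per 1000 starts. Toward the upstream side it was 36.3, then 27.6 in the first 100 bp after the start. In the last 100 bp before the start it was 14.8, members and others together. Farther downstream of the maximum, the next steps of 100 bp held 28.4, 19.85 and 14.27, so the density fell about as fast on that side. Between 1300 and 1400 bp upstream it was 1.30. Of the 825 genes, 128 (15.5%) also had a peak with its midpoint 0 to 1000 bp downstream, against 19.6% of all coding genes. These shares were not matched for first-exon GC content, and 68.0% of members themselves covered a start. Whether such a peak leaves less room for another downstream was not tested.

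A peak with its midpoint upstream usually extended over the start itself. A start was covered by 545 members (68.0%), namely 540 of the 636 within 500 bp and 5 of the 165 beyond. All 271 members in the first 100 bp covered their start, as did 34 of the 86 between 301 and 400 bp. The 5 distant ones include wide peaks such as those of Tmem178b (931 bp upstream, 1996 bp wide) and 3110070M22Rik (770 bp upstream, 2636 bp wide). The 256 members that did not cover the start ended a median of 258.5 bp short of the nearer start, and at most 764 bp. The midpoint of 599 members (74.8%) lay outside every annotated gene, that of 84 (10.5%) lay inside another coding gene and that of 118 (14.7%) inside a non-coding gene only.

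How a peak is classed depended on the annotated start. Of 830 pairs of a peak and a gene, 808 had a RefSeq gene, and the 2 annotations placed the start within 50 bp of each other for 379 (46.9%). By RefSeq starts, a comparison added after the data were seen, 516 pairs (63.9%) were again 1 to 1000 bp upstream. A further 168 (20.8%) were 0 to 1000 bp downstream, 85 (10.5%) more than 1000 bp downstream and 39 (4.83%) more than 1000 bp upstream. Thus 253 pairs (31.3%) were downstream of the RefSeq start, whereas 178 of 4021 pairs (4.43%) that GENCODE placed downstream were upstream by RefSeq. Among those that were downstream by RefSeq are the peaks of Fcgr3 (617 bp), Hmx3 (1198 bp), Ppp3ca (379 bp) and Pnma2 (9087 bp). Pairs with starts within 50 bp of each other covered 370 peaks with a median width of 638.5 bp and a median distance of 183.5 bp, against 637 and 198 bp in all members. Since the rule takes the 5′-most start of any transcript, a peak downstream of that start but upstream of an internal start is not a member.

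Divergent coding partners were few, as they were over all coding genes. A coding start on the other strand lay 1 to 1000 bp upstream of 46 of the 825 genes (5.58%). This share was 5.38% in genes with a downstream peak and 6.96% in all coding genes. A member lay upstream of coding genes on both strands in 24 cases (2.996% of these peaks, exact 95% binomial interval 1.93 to 4.43, counting error only). The distance between the paired starts ran from 41 to 1199 bp with a median of 283.5 bp. The peak covered both starts in 17 pairs, 1 start in 4 and neither in 3. Sequence upstream of starts on both strands is scarce, at 0.180 Mb against 18.5 Mb upstream of a start on 1 strand, and it held 134 midpoints per Mb against 41.9. These densities were not matched for distance, and sequence between paired starts lies mostly close to a start. Around all starts, members numbered 13.4 per 1000 starts in the nearest 100 bp upstream and 1.35 in the farthest 100 bp of the window. Another 5 members lay upstream of a pair of genes on the same strand, such as Raly and a (agouti), and Atf7 and Gm28047. The exclusion of peaks downstream of any start shapes these counts: of 1090 peaks upstream of a start, 289 were removed, and 278 of these lay downstream of a start on the opposite strand.

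The strongest of the 24 was the peak between Rbmxl1 and Slc10a7, whose upstream stretches are printed above, with a score of 171.43, a width of 1269 bp and 448 bp between the starts. Lyzl4 and Vipr1 followed, with a score of 152.06, a width of 1023 bp and 620 bp between the starts. The pair of Tshz1, a teashirt zinc finger gene, and Zadh2, a zinc-binding alcohol dehydrogenase gene, had a score of 140.92 with 357 bp between the starts. These 3 peaks each covered both starts of their pair.

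The other partners include genes with general functions in the cell. Dolk, dolichol kinase of protein glycosylation, and Nup188, a nuclear pore protein gene, had 63 bp between their starts and a peak with a score of 136.75. Cep76, of the centrosome, and Psmg2, a chaperone of proteasome assembly, had a peak with a score of 113.79. Gm9922 and Lmo7 shared a peak of 127.64, Lsr and Fam187b 1 of 113.09, Nln and Sgtb 1 of 104.66, Pgm3 and Rwdd2a 1 of 90.16 and Rbbp4, a histone-binding protein gene, and Zbtb8os 1 of 77.05. Gorasp1 and Ttc21a had the shortest distance at 41 bp, followed by Wfdc3 and Dnttip1 at 52 bp and Rbks and Babam2 at 57 bp, with scores of 55.64, 57.51 and 66.90. Those 3 peaks covered both starts. The longest distances were those of Cox19 and Cyp2w1 at 1199 bp, Asphd1 and Sez6l2 at 981 bp and Mrpl41 and Pnpla7 at 935 bp. Their peaks were 653, 607 and 502 bp wide and covered neither start.

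**Figure D2:**
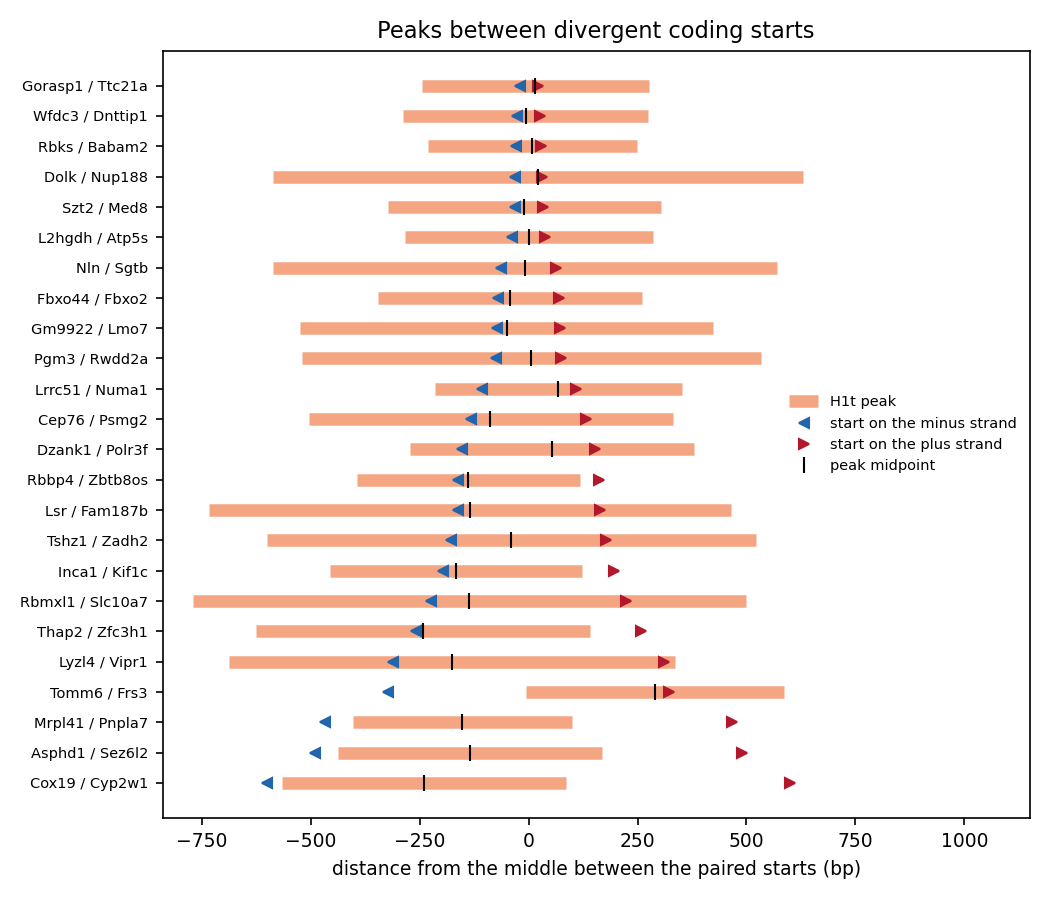
The 24 members between divergent coding starts, ordered by the distance between the starts, with the peak as a bar, its midpoint as a black tick and the starts as arrowheads (x axis, bp from the middle between the starts; y axis, gene pairs, minus-strand gene first). The bar covers both arrowheads in 17 pairs, and neither in the 3 pairs at the bottom.

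Few divergent pairs had a member between their starts, but the space between starts is short. Of 734 pairs with starts 1 to 1000 bp apart, 23 (3.13%) had a member between them, whereas 214 (29.2%) had a peak 0 to 1000 bp downstream of either start. A member lay between 6 of 306 pairs with starts 1 to 100 bp apart (1.96%), 4 of 200 at 101 to 200 bp (2.0%) and 2 of 96 at 201 to 300 bp (2.08%). It lay between 6 of 64 pairs at 301 to 500 bp (9.38%) and 5 of 68 at 501 to 1000 bp (7.35%). Per length, the 140.6 kb between the starts of the 734 pairs held 164 members per Mb, against 154 peaks per Mb downstream of the same starts. These densities were not matched for distance from the start either. The closest pairs, at 1 to 100 bp, had the highest density, 353 per Mb, from 6 members in 17.0 kb. A further 446 coding pairs overlap at their starts and have no space between them. Median width was 639.5 bp in the 24 divergent members and 637 bp in the other 777, and median score was 71.13 and 66.98.

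Non-coding partners were more frequent than coding ones, although the rule removed peaks downstream of coding starts and not those downstream of non-coding starts. A divergent non-coding start accompanied 35 members without a coding partner (4.37%), which brings the members with a partner of any kind to 59 (7.37%). By annotated type, the partner was a long intergenic RNA in 14 peaks and a bidirectional-promoter long non-coding RNA in 6. It was an antisense RNA in 5, a processed transcript in 5, a transcript of the annotation class TEC in 3, a scaRNA in 1 and a snoRNA in 1. A divergent non-coding start lay within 1000 bp of 66 of the 825 genes (8.0%), against 4.94% of genes with a downstream peak and 4.22% of all coding genes.

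The following pairs are examples chosen after their values were seen. Foxd2, a forkhead gene, and Foxd2os had starts 384 bp apart and a peak with a score of 120.28. Lhx1, a LIM homeobox gene, and Lhx1os were 125 bp apart with a score of 78.75, and Hoxa2 and Hoxaas2 were 843 bp apart with a score of 57.38. Foxf1, a forkhead gene of lateral mesoderm, and the long non-coding RNA Fendrr were 1276 bp apart with a score of 68.35. The highest-scoring pair was Sim2, a bHLH-PAS transcription factor gene, and Gm49620, with a score of 300.08 and a peak 2817 bp wide that spanned both starts, 1065 bp apart. Tmem178b and Gm26833 (268.64), Ism1 and Gm14066 (175.13), Nuak1 and Gm47962 (172.78) and Klf12 and Gm41231 (159.74) came next. The chromatin genes Dek, of a DNA-binding oncoprotein, and Kdm7a, of a histone demethylase, paired with 1700026N04Rik and Gm49041 and had scores of 94.80 and 101.35. Several of these examples depend on the GENCODE start. With RefSeq starts, the peaks of Tmem178b, Ism1, Nuak1, Klf12 and Dek lay 1110, 4510, 6, 355 and 1265 bp downstream of the coding start. Those of the other coding genes named in this paragraph lay upstream.

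Members were narrow for this list. Their width had a median of 637 bp (quartiles 556 and 803 bp, range 396 to 3722 bp), against 673 bp for the 4015 peaks downstream of a start, 645 bp for the 321 peaks 1001 to 2000 bp upstream and 699 bp for all autosomal peaks. A width of 1000 bp or more was reached by 106 members (13.2%), against 14.9% of downstream peaks and 19.6% of all. A width of 2000 bp or more was reached by 3 members (0.3745%), those of Fcgr3, Sim2 and 3110070M22Rik, against 0.2989% of downstream peaks and 1.82% of all. Peaks under 500 bp made up 7.62% of members, 6.92% of downstream peaks and 8.10% of all. The shortfall against all peaks was thus among the wide peaks. The narrowest members were those of Gm10197 (396 bp), Pla2g3 (407 bp), Usp54 (412 bp), Hoxd10 (413 bp) and Med13 (414 bp).

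Width went with the authors' score, a value per peak in the deposited list whose lowest value is 50. Scores of members had a median of 67.21 (quartiles 56.80 and 91.42), against 70.75 downstream and 73.82 in all autosomal peaks. A score of 200 or more was found in 13 members (1.62%), against 1.92% downstream and 6.22% of all. Across peaks, which share 1 library, Spearman's rho between width and score was 0.787 in members, 0.821 downstream and 0.812 in all. Within classes of score the widths lay close together. From 50 to under 60 the median was 556.5 bp in 286 members, 559 bp downstream and 558 bp in all. From 60 to under 75 it was 612.5 bp in 202 members, 626 bp downstream and 634 bp in all. From 75 to under 100 it was 766, 772.5 and 773 bp in the same order, and from 100 to under 150 it was 1005, 973 and 961.5 bp. At 150 or more it was 1498 bp in 38 members, 1392 bp downstream and 1386 bp in all, so in the highest classes members were not narrower.

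**Figure D3:**
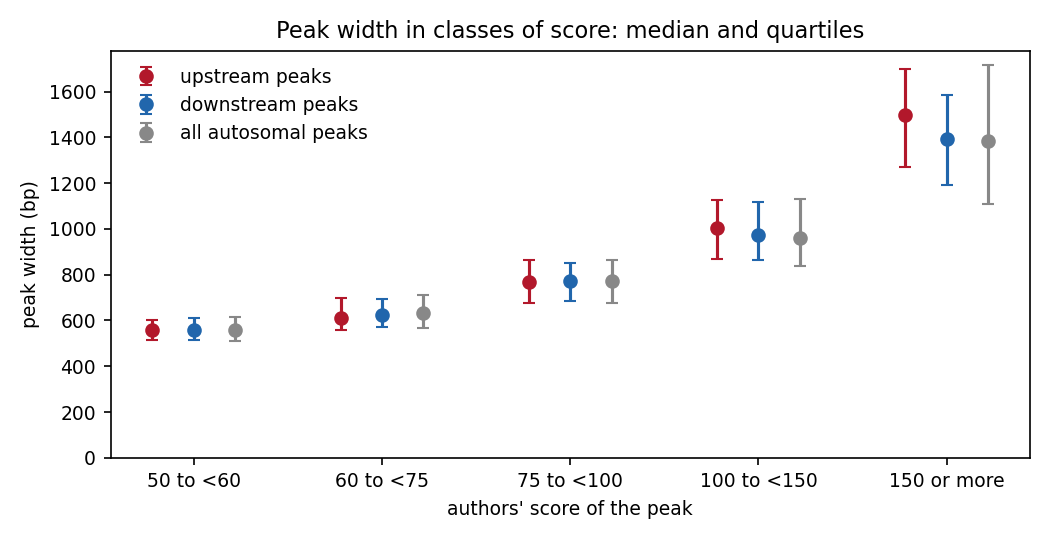
Peak width in bp (y axis) in 5 classes of the authors' score (x axis) for upstream peaks, downstream peaks and all autosomal peaks, with points at the median and bars from the first to the last quartile. In the lowest class the medians are 556.5, 559 and 558 bp, and in the highest 1498, 1392 and 1386 bp.

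The highest score among members belonged to Fcgr3, the gene of a low-affinity receptor for the constant part of IgG on macrophages and other blood cells. Its peak, at chr1:171063438-171067159, had a score of 1397.55 and was also the widest at 3722 bp. It lay 363 bp upstream and covered the start. Without peaks of 500 or more, which removes this peak alone, 800 members remained and the median width was again 637 bp. The next scores were 359.98 for 3110070M22Rik, 355.28 for Gm13287, 300.08 for Sim2 and 278.88 for Hmx3, a homeobox gene of the inner ear. Tmem178b had 268.64, Ppp3ca, the catalytic subunit of calcineurin, 249.73, and Hes1, a repressor induced by Notch, 239.97. Nrg3 had 233.62 and Disp3, of the Dispatched family, 230.34. Wide peaks with lower scores included those of Pnma2 (1887 bp), Gm13275 (1775 bp), Ism1 (1761 bp) and Camk1d (1700 bp). Over all members, 52 of 825 genes (6.30%) had a predicted or clone-based symbol, against 9.03% of all coding genes.

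A gene with more than 1 member was rare, with 5 of 825. Lhx1 had peaks 22 and 654 bp upstream with scores of 78.75 and 65.44, both 612 bp wide. Epha6, an ephrin receptor gene, had peaks 768 and 32 bp upstream with scores of 83.69 and 56.80. The others were Tnni2, a troponin of fast skeletal muscle (78.03 and 51.11), Tmem189 (68.87 and 50.90) and 1600002K03Rik (57.96 and 56.90). Members lay farther from other peaks than peaks overall did: the nearest other midpoint lay a median of 11270 bp away, against 15120 bp for downstream peaks, 3483 bp for peaks 1001 to 2000 bp upstream and 4091 bp for all. Another midpoint lay within 2000 bp for 23.1% of members, 11.4% of downstream peaks and 32.4% of all.

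The densest run of members lay on chromosome 4, with 5 between 88779287 and 88803786 on the plus strand. They belonged to Gm13272 (score 181.54), Gm13278 (91.89), Gm13275 (159.92), Gm13279 (179.70) and Gm13287 (355.28), and were 866 to 1775 bp wide. With RefSeq starts, the peaks of Gm13278 and Gm13275 lay 452 and 578 bp downstream, and those of Gm13272, Gm13279 and Gm13287 upstream. The run also holds Ifnz, an interferon gene, and 3 other predicted genes. The RefSeq windows of Gm13272, Gm13285 and Gm13287 were identical in all 300 bases. Those of Ifnz, Gm13276 and Gm13277 were also identical to each other, and that of Gm13278 matched them in 299 of 300 bases. Of the 9 genes, Gm13277 had a peak on neither side. Reads from copies this alike cannot be told apart, and the sources used here do not say how reads with several positions were placed, so the peaks of Gm13272, Gm13278 and Gm13287 are uncertain. The windows of Gm13276, Gm13277, Gm13278 and Gm13285 are set on RefSeq starts 655 bp from those of GENCODE. The likeness given for them therefore holds at the RefSeq starts and was not examined at the GENCODE starts. The windows of Gm13275 and Gm13279 are set on RefSeq starts 745 and 160 bp from those of GENCODE and were compared without alignment. Their likeness to the others is thus not given, and whether their peaks are equally uncertain was not tested.

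Genes with a member had GC-rich first exons. First-exon GC content, measured in 806 of 825 genes (97.7%), had a median of 67.8% (quartiles 60.8% and 73.5%), against 67.5% in genes with a downstream peak and no member, 57.4% in genes with neither and 60.2% in all coding genes. The observed to expected ratio of CG was 0.848, 0.841, 0.547 and 0.669 in the same order. The share of genes with a member grew with GC content, from 1.16% in the lowest class of 5 to 1.86%, 3.75%, 5.56% and 7.94% in the highest. The share with a downstream peak was 2.82%, 8.55%, 20.4%, 32.0% and 36.3% in the same classes, so from the lowest class to the highest the downstream side held 2.43, 4.59, 5.45, 5.75 and 4.58 times as many genes.

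Distance from the start, more than score, went with this composition. First-exon GC content had a median of 68.7% for genes with a member 1 to 100 bp upstream, 69.1% at 101 to 500 bp and 62.4% at 501 to 1000 bp. For members of a score under 60, from 60 to under 100, and of 100 or more it was 67.5%, 67.9% and 68.4%. Genes with a divergent coding partner had 65.2%. Genes with a member were also longer, with a median of 30190 bp against 26650 bp for those with a downstream peak and 17630 bp for all. Whether GC content affected the recovery of fragments was not tested.

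**Figure D4:**
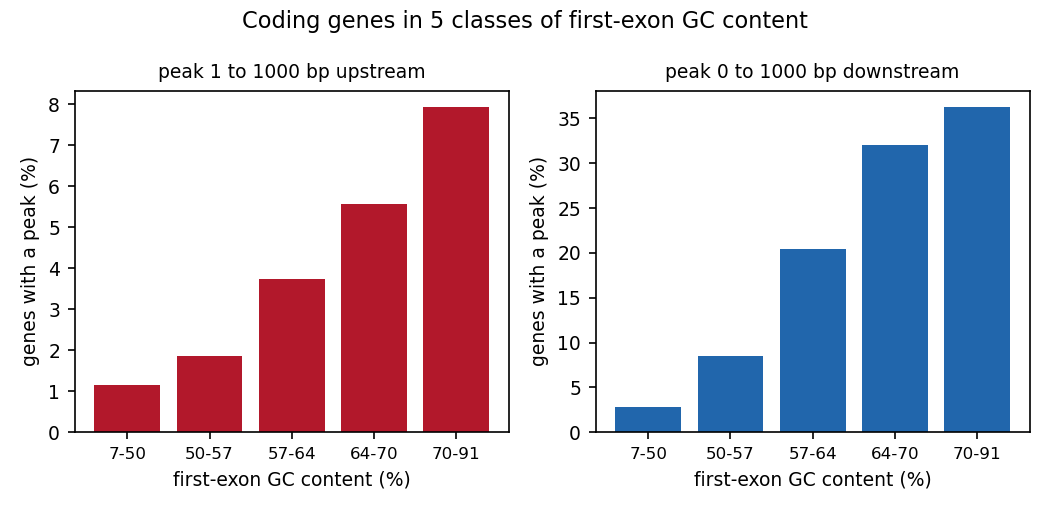
Share of coding genes with a peak (y axis, percent, scales differ) in 5 classes of first-exon GC content (x axis, percent), with the upstream side at left and the downstream side at right. The bars run from 1.16% to 7.94% upstream and from 2.82% to 36.3% downstream.

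Gene lists were read against the background of 3.97% of coding genes with an upstream member and 19.6% with a downstream peak. Of 39 lists, 17 lay above the upstream background, 21 above the downstream background and 12 above both, and 8 had no member. Most lists are short, so a member or 2 can move a share past the background, and a peak under the authors' threshold would not be listed. All list counts use GENCODE starts. Some of these members lie downstream of the RefSeq start, which is stated below for some lists only.

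Developmental transcription factors had members more often than most lists. Members lay upstream of 4 of 18 Sox genes (22.2%, downstream 44.4%), namely Sox5 (score 72.67), Sox12 (55.12), Sox9 (52.73) and Sox11 (51.30), with midpoints 337 to 885 bp upstream. They lay upstream of 6 of 41 forkhead genes (14.6%, downstream 36.6%): Foxd2 (120.28), Foxf1 (68.35), Foxn2 (61.32), Foxc1 (57.41), Foxc2 (53.93) and Foxo3 (50.93). The Hox clusters, which pattern the body axis, had 3 of 39 (7.69%, downstream 30.8%): Hoxc9 (120.73), Hoxd10 (61.30) and Hoxa2 (57.38). With RefSeq starts, the peak of Hoxd10 lay 7472 bp downstream, and those of the other Hox, Sox and forkhead members lay upstream. Median scores were 53.92 for Sox, 59.36 for forkhead and 61.30 for Hox members, against 67.21 over all members, so these were frequent but not strong. The zinc finger and BTB genes had 4 of 39 (10.3%), led by Zbtb20 (96.98). The large Zfp family had 11 of 383 (2.87%), led by Zfp112 (126.75) and Zfp647 (104.68).

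Among germ cell lists, the spermatogonial list lay above the upstream background of 3.97% and the meiotic prophase, piRNA pathway and spermatid lists below it. In lists this short the background share itself stands for only a few genes, and a difference between stages was not tested. Spermatogonial genes had 5 of 30 (16.7%, downstream 33.3%). They were Neurog3 (85.77), a factor of spermatogonia entering differentiation, Lhx1 (78.75), T (60.87), the brachyury gene, Kit (52.42), the receptor of stem cell factor, and Rarg (50.31), a retinoic acid receptor. Meiotic prophase genes had 0 of 46 and piRNA pathway genes 0 of 27, while 21.7% and 14.8% of these lists had a downstream peak. Spermatid and sperm genes had 1 of 65 (1.54%, downstream 16.9%). It was Spaca4, a sperm membrane protein gene, with a score of 51.86 and a midpoint 977 bp upstream. Axonemal dynein and Cfap genes had 1 of 50, Dnah8 (93.62).

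Of the lists of somatic cells of the testis and of blood cells, only the Sertoli list had more than 1 member. Sertoli cell genes had 4 of 21 (19.05%, downstream 42.9%): Amh (101.04), anti-Müllerian hormone, Nr5a1 (94.56), a nuclear receptor of steroidogenic tissue that is also in the Leydig list, Gdnf (72.05), a factor that maintains spermatogonial stem cells, and Sox9 (52.73). The Leydig list had 1 of 18 (5.56%), Nr5a1, the peritubular list 1 of 16 (6.25%), Tpm1 (133.95), and the blood or macrophage list 1 of 18 (5.56%), Fcgr3. Each of these shares rests on 1 gene, against 3.97% of all coding genes. The peritubular and blood or macrophage lists had no downstream peak. By RefSeq starts, the peaks of Gdnf, Tpm1 and Fcgr3 lay 718, 215 and 617 bp downstream. A peak list does not show in which cells of the preparation a region was bound, and the part of somatic cells in these peaks was not tested.

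Among chromatin and genome maintenance lists, DNA repair and core histone genes lay below the upstream background and heterochromatin genes near it. Imprinted genes lay above it by GENCODE starts with 3 members, and linker histone genes with only 1. Linker histone genes had 1 of 11 upstream (9.09%) and 5 of 11 downstream (45.5%). The member was at H1f0, the replacement linker histone of resting cells, with a score of 105.12, a width of 1029 bp and a midpoint 477 bp upstream. The genes of the core histone clusters had 0 of 60, with 21.7% downstream. With replacement variants, a wider list taken after the values were seen, there was 1 of 69, H3f3a (107.56), which encodes the variant H3.3. DNA repair genes had 1 of 87 (1.15%), Rev3l (119.17), the catalytic subunit of a translesion polymerase. Heterochromatin genes had 1 of 31 (3.23%), Morc2a (65.55). Imprinted genes had 3 of 47 (6.38%, downstream 36.2%): Zdbf2 (68.25), Igf2 (63.39), a fetal growth factor, and Kcnk9 (51.11), a potassium channel gene. With RefSeq starts, the peaks of Zdbf2 and Kcnk9 lay 72853 and 2196 bp downstream, and only that of Igf2 lay upstream, at 908 bp.

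Lists of common cell functions lay on both sides of the background. Cytosolic ribosomal protein genes had 2 of 81 (2.47%, downstream 33.3%), Rpl13a (72.56) and Rps13 (69.60). Mitochondrial ribosomal protein genes had 1 of 78, NADH dehydrogenase genes 0 of 43 and aminoacyl-tRNA synthetase genes 0 of 35. Proteasome genes had 2 of 48 (4.17%, downstream 16.7%), Psmg2 and Psmd12. RNA polymerase subunits had 2 of 28 (7.14%, downstream 14.3%), Polr3d and Polr3f, and mediator subunits 2 of 28 (7.14%, downstream 17.9%), Med8 and Med13. Proteasome genes thus lay near the upstream background, and the RNA polymerase and mediator lists lay above it on 2 genes each. These 3 lists lay below the downstream background. Ubiquitin-specific proteases stood higher by GENCODE starts with 5 of 44 (11.4%, downstream 40.9%), led by Usp15 (88.60). With RefSeq starts, the peaks of Usp15, Usp31 and Usp54 lay 45, 89 and 3251 bp downstream, and those of Usp47 and Usp49 upstream. The list of ubiquitin-conjugating enzymes had 1 of 30, Ube2s (69.18), and with lettered copies, also added later, 2 of 32 (6.25%), the other being Ube2d2a (59.32). Solute carriers had 12 of 368 (3.26%), led by Slc10a7 and Slc16a1 (112.22), a monocarboxylate transporter. The Tmem genes had 6 of 234, Ccdc genes 1 of 136, kinesins 2 of 37 (5.41%) and DEAD or DEAH box helicases 1 of 51.

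Families expressed in special tissues differed from each other. Collagen genes had 4 of 42 (9.52%, downstream 28.6%): Col12a1 (109.95), Col2a1 (97.79), Col5a1 (64.20) and Col8a1 (52.37). Olfactory receptor genes had 11 of 1127 upstream (0.976%) and 2 downstream (0.1775%), which with the blood or macrophage and peritubular lists makes 3 of 39 lists whose upstream share was the larger. Their midpoints lay 549 to 972 bp upstream, all beyond 500 bp, and 9 of the 11 at 800 bp or more, whereas 20.6% of all members lay beyond 500 bp. Olfr971 had the highest score of these at 175.11, and the other 10 ran from 50.65 to 103.53. These placements depend on the annotation. By RefSeq starts, Olfr971, Olfr683, Olfr1298, Olfr601, Olfr596, Olfr1316 and Olfr203 lay 3227 to 5246 bp upstream, and the rest 851 to 935 bp. The only members of the blood or macrophage and peritubular lists, Fcgr3 and Tpm1, lay 617 and 215 bp downstream by RefSeq. Vomeronasal receptor genes had 0 of 326 on both sides. Clustered protocadherin genes had 0 of 56 and keratin-associated genes 0 of 57, with 10.7% and 31.6% downstream. The cytochrome P450 list had 1 of 94, Cyp2w1, whose peak also lies upstream of Cox19. That list left out genes whose symbols end in a letter, and with them, added after the values were seen, it had 2 of 99 (2.02%), the other being Cyp4a12a (score 70.52, 977 bp upstream).

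**Figure D5:**
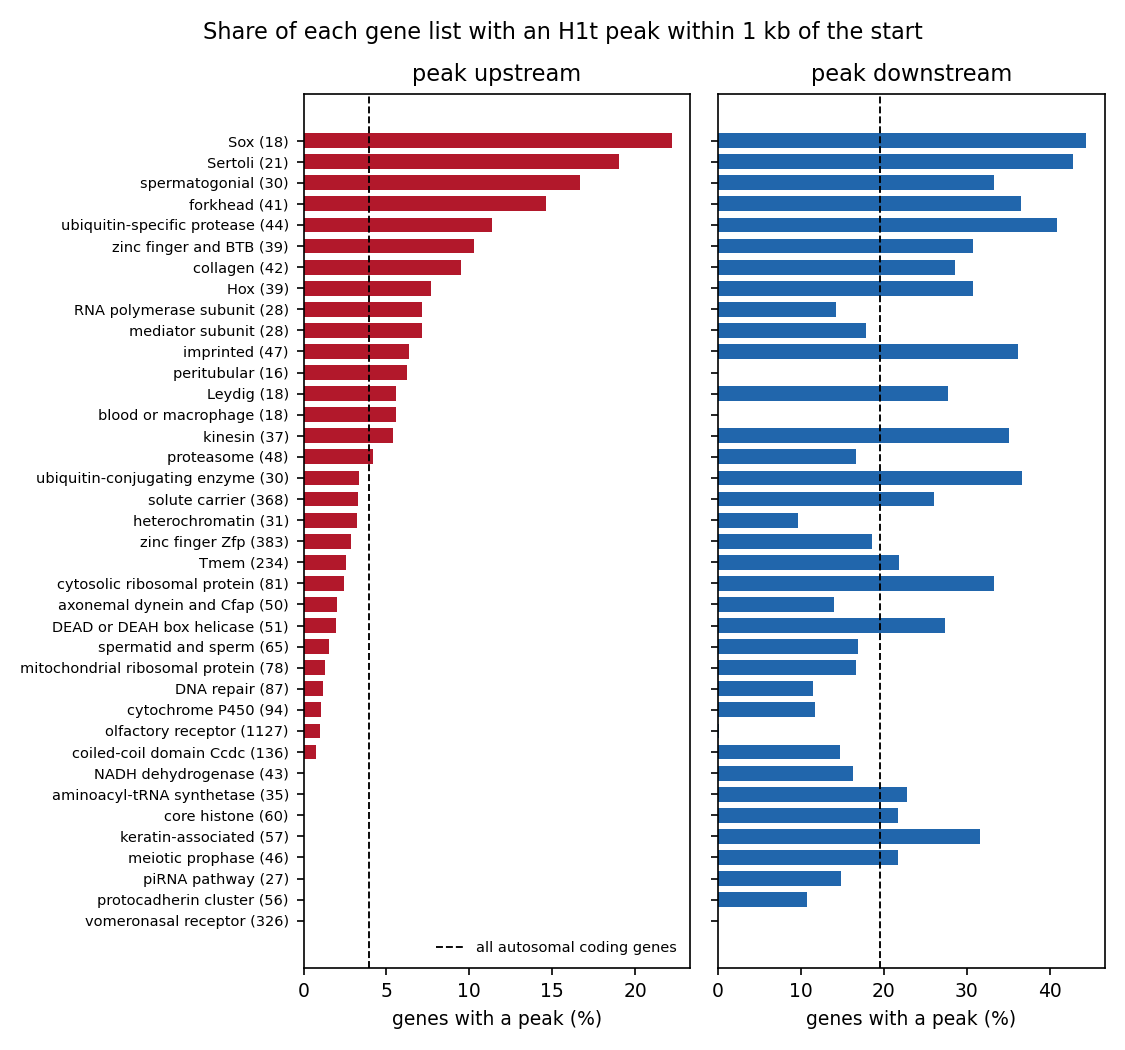
Share of genes with a peak (x axes, percent, scales differ) for the 38 gene lists of at least 15 genes (y axis, number of genes in parentheses), with upstream members at left and downstream peaks at right. Dashed lines mark the 3.97% and 19.6% of all autosomal coding genes, and Sox (22.2%), Sertoli (19.05%), spermatogonial (16.7%) and forkhead (14.6%) genes have the highest upstream shares.

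By chromosome, the share of coding genes with a member ran from 2.79% on chromosome 6 to 7.26% on chromosome 15. Chromosome 15 had 57 of 785 genes with a member, among them Hoxc9, Col2a1, H1f0, Gdnf and Rarg. The next highest were chromosomes 19 (5.01%), 4 (4.97%) and 8 (4.90%), and chromosomes 7 (2.82%) and 1 (2.98%) were also low. The share for chromosome 4 includes the run of 5 predicted genes.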

How the data were processed

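Chromatin was immunoprecipitated for H1t from germ cells of ICR mice, per the labels' protocols. Reads were aligned to mm10 with Bowtie 1.1.2, per the submitters' processing notes. Which program called peaks, at what threshold, and what unit its score has, is not given in the sources used here. Each deposited row holds a position and the authors' score, used only to describe and rank peaks. The input was not analysed here. Positions are counted from 1. Starts came from GENCODE vM21, and sequences and alternative starts from RefSeq (GRCm38.p6). First-exon GC content used annotated transcripts. The members, lists and comparisons were chosen with earlier results of these data known. Named genes were the 10 highest-scoring and 10 widest, the 5 narrowest, the top 10 and extreme divergent pairs, genes with 2 members, peaks nearest the window edges and up to 5 per list. Further list members, and examples of non-coding partners and of RefSeq differences were chosen after their values were seen. Classification was tested on simulated positions. Software was matplotlib 3.10.9, scipy 1.17.1, pandas 2.3.3 and numpy 2.4.6 under Python 3.11.15.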

Additional observations from a re-analysis of the deposited data

How the results depend on the processing

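Other settings changed the number of members more than their width. With the starts of all transcripts in place of the 5′-most, there were 1589 member peaks upstream of 1478 genes, and 1.64% of these peaks had a divergent coding partner. With peaks at or above the median score of the list (74.04) alone, there were 318 peaks at 333 genes, with a median width of 874 bp and a median score of 98.8. With genes of any type as partner, the share was 7.37%. For the 5 quantities named here (peaks, genes, share, width and score), the other 40 of 48 values lay within 1.5 times the count, or within the 95% binomial interval of the share or median. Among them, the number of members ran from 636 with a 500 bp window to 1122 with a 2000 bp window and was 678 with RefSeq starts. The median width ran from 635 to 652.5 bp. Many members lay near the lowest score of the list, with 35.7% under 60. With wider name patterns, chosen after seeing the data, members were 2 in place of 1 among cytochrome P450 and ubiquitin-conjugating enzyme genes and 1 in place of 0 among core histone genes. No paired analysis was possible because the H1t library is 1 sample without a replicate.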

Other observations

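The sex chromosomes were outside the rule. On X, 3 peaks met the same distance rule, at 3 of 948 coding genes (0.3165%), and on Y none did at 183 coding genes. The peak of Fmr1nb lay 931 bp upstream with a score of 89.79 and a width of 1059 bp. Those of the predicted genes Gm17577 and Gm17467 lay 958 and 863 bp upstream, with scores of 255.02 and 264.25. These 3 midpoints were all more than 800 bp from the start, a distance that 59 (7.37%) of the autosomal members reached.

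Besides the run on chromosome 4, members gathered in 4 runs of 3. That on chromosome 9 held S1pr2, a receptor of sphingosine-1-phosphate, Icam5 and Zglp1, a zinc finger gene of germ cells, with scores of 98.30 to 108.60. The others held Helz, Pitpnc1 and Psmd12 on chromosome 11 (56.37 to 151.36), Frs3, Tomm6, Gm21981, Prickle4 and Usp49 on chromosome 17 (54.48 to 67.48), and Asphd1, Sez6l2, Maz and Mvp on chromosome 7 (53.46 to 76.09).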
